A study of Mus musculus with 12 samples.

Results

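The transcript levels of 40 genes that encode chromatin remodelers, histone-modifying enzymes and coactivators were followed in AtT-20 cells that express different forms of Pax7 or its relative Pax3. The genes were taken by name, and all 40 were found among the 16385 genes of the expression table. All 40 also passed the filter on low values that left 12578 genes for testing. They comprise 14 subunits of SWI/SNF complexes, 10 genes of MLL complexes, 3 histone demethylases, 3 H3K9 methyltransferases, 3 HP1 proteins, 2 acetyltransferase coactivators, 2 CHD remodelers and 3 enzymes of DNA methylation. The question asked of them was which of these levels stay equal between the forms of Pax7.

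Pioneer transcription factors bind sites in closed chromatin, and the opening of such sites draws on enzymes that the cell already holds. SWI/SNF complexes use ATP to move or evict nucleosomes, MLL complexes deposit methyl groups on H3K4 at enhancers and promoters, and p300 and CBP acetylate histones at active enhancers. H3K9 methyltransferases and the HP1 proteins that read their mark maintain closed chromatin, and H3K9 demethylases such as Kdm3a take this mark away.

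AtT-20 cells come from a tumor of the mouse pituitary and serve as a corticotrope model, that is, of cells that make Pomc. The 12 libraries analysed here were made from ribosome-depleted RNA, 2 from each of 6 groups, namely Pax3, the C-terminal deletion Pax7-465, a group labelled Pax7 NoTag, and Pax7 in the forms Q-GL-, Q-GL+ and Q+GL+. Q and GL stand for a glutamine and a glycine-leucine pair that alternative splicing places in the paired domain of Pax7. The library titles name the NoTag group and give its genotype only as Pax7, so its isoform is not stated. According to the methods, each population is a pool of many drug-resistant colonies infected with a retroviral vector in which a CMV promoter drives a protein with Flag tags at both ends. Whether the NoTag construct carries a tag at either end is not stated beyond its label, and cells without an introduced Pax factor were not analysed here. In such bulk RNA, fewer cells of a type and less RNA per cell cannot be told apart. The samples are called replicates without a statement that they came from separate infections, so the p-values measure only the spread between these libraries.

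The NoTag libraries stood apart from the other 10. Their summed FPKM was 627305 to 666609 against 413794 to 483161 in the others, and 733 genes were listed at 0 in all 10 others while being above 0 in each NoTag library. The 40 genes took 0.221 to 0.233% of the summed FPKM in the NoTag libraries and 0.276 to 0.307% in the others. For this reason equality was judged over the 5 other groups, and NoTag cells are described separately. The table gives no counts of reads, and the depth behind each value is therefore unknown. The corticotrope transcripts Pomc and Tbx19 were present in every library, at 5112 to 10680 and 116 to 143 FPKM, whereas Crhr1, the CRH receptor, was at 0.130 to 0.484 FPKM. Markers of other lineages that had values were low, with Col1a1 at most 1.07, Cd68 at most 0.658 and Lhb at 0. Pdgfra was at 0.102 and 0.149 FPKM in the NoTag libraries and at 0 in the other 10. Gh, Prl, Cga, Tshb, Col1a2 and Ptprc had no values, so their levels are unknown. Levels are given as FPKM, fragments scaled to the length of the transcript and to the size of the library, so they can be compared between genes. The table does not name its unit, and FPKM was read from the scale of the values, so comparisons of level between genes rest on that reading. Differences come from 1 limma fit to log2(FPKM + 1) of all 12 libraries, and a gene was called changed at a Benjamini-Hochberg adjusted p under 0.05 over all 12578 genes.

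The promoters of these genes are shown first, because most of them share a sequence feature. RefSeq entries on GRCm38.p6 matched 34 of the 40 genes, with 47 promoter windows of 300 bases, 250 before and 50 after the start. Of these windows, 39 were rich in CpG, meaning a GC content over 50% and an observed to expected CpG ratio over 0.6, which is 83.0% of them. The share was 67.4% for the windows of all tested genes and 33.3% for all windows in the table, and the median GC content was 68.0, 61.0 and 52.7% in the same order. Of the 47 windows 30 start within 500 bases of the gene start in the expression table, and 27 of these 30 were rich in CpG, against 74.5% of such windows of all tested genes. The other 17 start farther downstream, and which start is used in these cells was not measured. The 250 bases before the RefSeq start are printed for 3 genes whose windows start within 500 bases of the gene start. For Smarca2 the RefSeq start lies 110 bases downstream of the gene start in the expression table. Its printed bases therefore run into the gene. The ATPase genes Smarca4 and Smarca2 both have CpG-rich windows and differ in level, and Kmt2d is among the genes with the least equal levels. Capitals mark CpG dinucleotides, 25, 28 and 26 of them in the order shown.
Smarca4, GRCm38 chr9:21615919-21616168, plus strand: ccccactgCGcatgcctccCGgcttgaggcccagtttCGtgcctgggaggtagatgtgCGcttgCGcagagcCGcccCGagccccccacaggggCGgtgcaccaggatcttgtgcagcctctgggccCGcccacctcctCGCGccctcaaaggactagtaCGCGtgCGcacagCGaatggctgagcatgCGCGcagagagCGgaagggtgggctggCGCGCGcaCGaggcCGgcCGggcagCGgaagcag
Smarca2, GRCm38 chr19:26604910-26605159, plus strand: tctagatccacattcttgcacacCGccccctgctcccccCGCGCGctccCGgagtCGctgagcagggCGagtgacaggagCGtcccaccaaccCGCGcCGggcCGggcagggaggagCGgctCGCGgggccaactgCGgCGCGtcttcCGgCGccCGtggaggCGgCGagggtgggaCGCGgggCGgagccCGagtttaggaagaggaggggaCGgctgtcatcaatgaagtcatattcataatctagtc
Kmt2d, GRCm38 chr15:98871206-98871455, minus strand: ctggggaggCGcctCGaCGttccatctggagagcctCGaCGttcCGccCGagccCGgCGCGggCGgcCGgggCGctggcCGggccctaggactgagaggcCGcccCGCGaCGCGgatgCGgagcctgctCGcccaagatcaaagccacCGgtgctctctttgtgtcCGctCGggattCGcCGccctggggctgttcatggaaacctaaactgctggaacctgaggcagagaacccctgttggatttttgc

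Motifs of the DNA-binding domains of Pax7 were searched on both strands of the same windows. The homeodomain half-sites TAAT and ATTA in this order, which read the same on both strands, were found 2 or 3 bases apart in 0 of the 47 windows, against 0.133% of the windows of all tested genes for a gap of 2 bases and 0.175% for a gap of 3. The paired domain core GTCACGC was found in 1 window, that of Pbrm1, which is 2.13% of them against 3.85% for all tested genes. These are matches of letters, and no binding was measured here.

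Across the 5 groups other than NoTag, none of the 40 genes differed by the moderated F test of limma, against a background of 4.78% of all tested genes, and none had an unadjusted p under 0.05 either, against 19.5% of all tested genes. The smallest adjusted p was 0.307, for Smarca2. The ratio of the highest to the lowest group mean ran from 1.05 for Wdr5 to 1.94 for Kdm6b, and it was under 1.3 for 38 of the 40 genes. The median range of the 5 group means was 0.18 on the log2 scale for these genes and 0.23 for all tested genes.

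Because a test that is not passed does not show equality, the 95% intervals of the 10 pairwise differences between the 5 groups were set against a margin of 1.5-fold. For 35 of the 40 genes all 10 intervals lay within the margin, as they did for 70.5% of all tested genes. When only genes that averaged 5 FPKM or more over the 10 libraries were counted, the numbers were 35 of 38, and 82.1% of all such genes. The intervals were not adjusted for the number of pairs. Margin and intervals are on the log2(FPKM + 1) scale, so the same fold is wider in FPKM itself, most of all for genes at low levels. The tightest gene was Smarcc2, whose 10 intervals allowed at most a 1.19-fold difference, followed by Wdr5 and Kmt2c, at 1.20-fold each. The last gene within the margin was Smarcc1, at 1.47-fold, and the first outside it was Arid1a, at 1.62-fold.

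**Figure D1:**
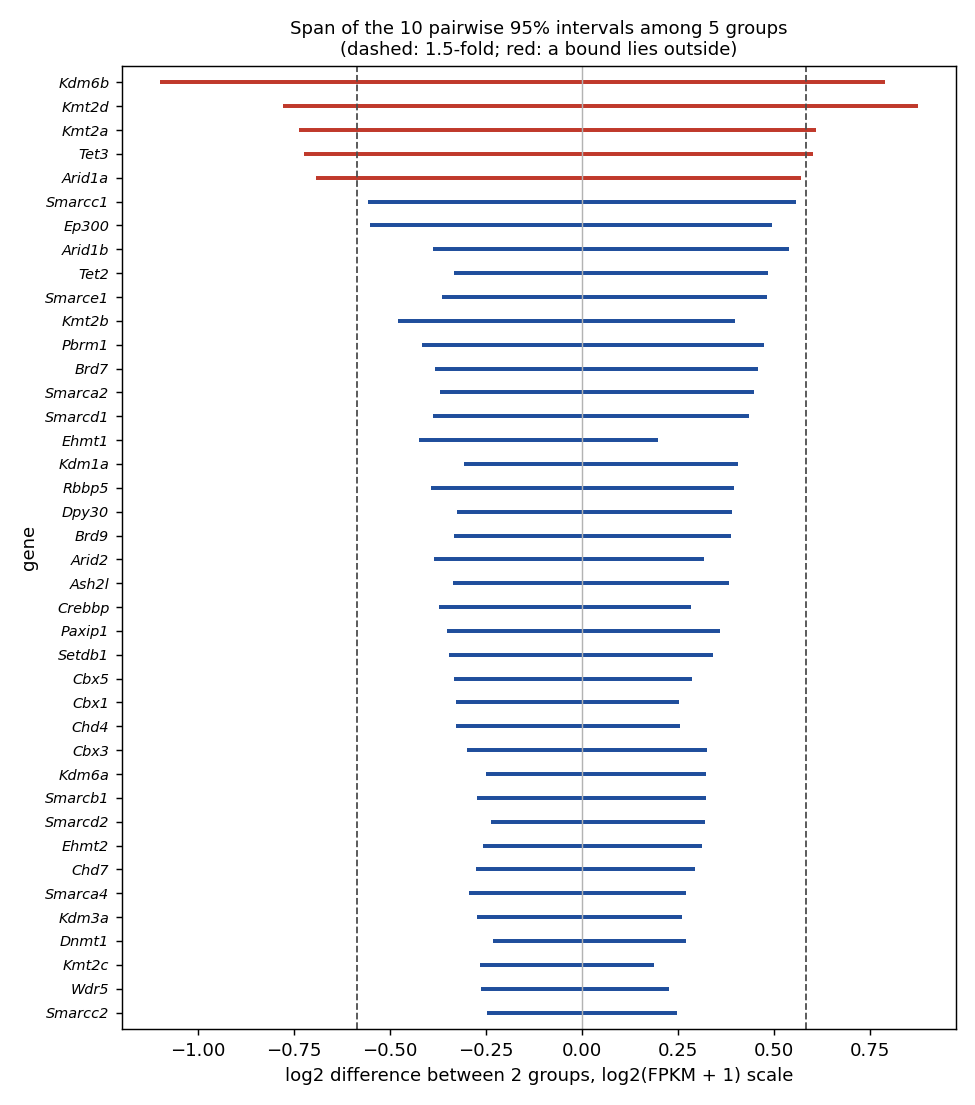
Span of the 10 pairwise 95% intervals among the 5 groups other than NoTag for each of 40 genes, from the lowest to the highest bound, on the log2(FPKM + 1) scale from limma. Dashed lines mark 1.5-fold, and the 5 genes in red, from Arid1a to Kdm6b, have a bound outside it.

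Of the SWI/SNF ATPases, Smarca4 was several-fold above Smarca2 in each of these 10 libraries. Smarca4, which encodes Brg1 (ENSMUSG00000032187, chromosome 9 from 21616169 to 21704230 of GRCm38), was at 70.9 and 72.5 FPKM in Q-GL- cells, 69.6 and 66.1 in Q-GL+, 66.2 and 68.0 in Q+GL+, 63.8 and 69.5 in Pax3 and 69.6 and 76.3 in Pax7-465. The 4 libraries of Q-GL- and Pax7-465 cells were above the other 6, although the nearest of both sets were at 69.6 FPKM, with group means from 66.6 to 73.0. The F test was not passed (adjusted p = 0.632 in limma), and the widest of the intervals allowed a 1.23-fold difference. Smarca2, which encodes the alternative ATPase Brm, was at 15.1 and 15.9 FPKM in Q-GL- cells, 14.6 and 12.4 in Q-GL+, 14.3 and 16.2 in Q+GL+, 12.4 and 13.5 in Pax3 and 12.9 and 13.8 in Pax7-465. The Q-GL- and Q+GL+ libraries were thus above both Pax3 libraries, by 0.24 (standard error 0.09, adjusted p = 0.181) and 0.22 (standard error 0.09, adjusted p = 0.449) on the log2 scale in limma, neither past the test.

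All 6 SWI/SNF subunits grouped here as shared, meaning between BAF and PBAF complexes, lay within the margin. Smarcb1, or Snf5, had group means of 71.9 to 78.0 FPKM, and Smarce1, or BAF57, of 46.9 to 54.5 FPKM. The scaffold pair Smarcc1 and Smarcc2 had means of 21.0 to 25.5 and of 21.5 to 22.7 FPKM. The BAF60 variants differed widely in level, with Smarcd2 at 67.5 to 73.2 FPKM and Smarcd1 at 4.63 to 5.45 FPKM. The 6 subunits grouped here as signatures of BAF, PBAF or non-canonical BAF complexes were at 4.73 to 22.1 FPKM over all group means. Of these, Pbrm1, the polybromo subunit of PBAF, was highest at 18.7 to 22.1 FPKM, Arid2 was at 11.2 to 12.6 FPKM, and Brd9, of the non-canonical complex, was at 4.73 to 5.28 FPKM. Among the 14 SWI/SNF genes Arid1a was the exception to the margin.

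**Figure D2:**
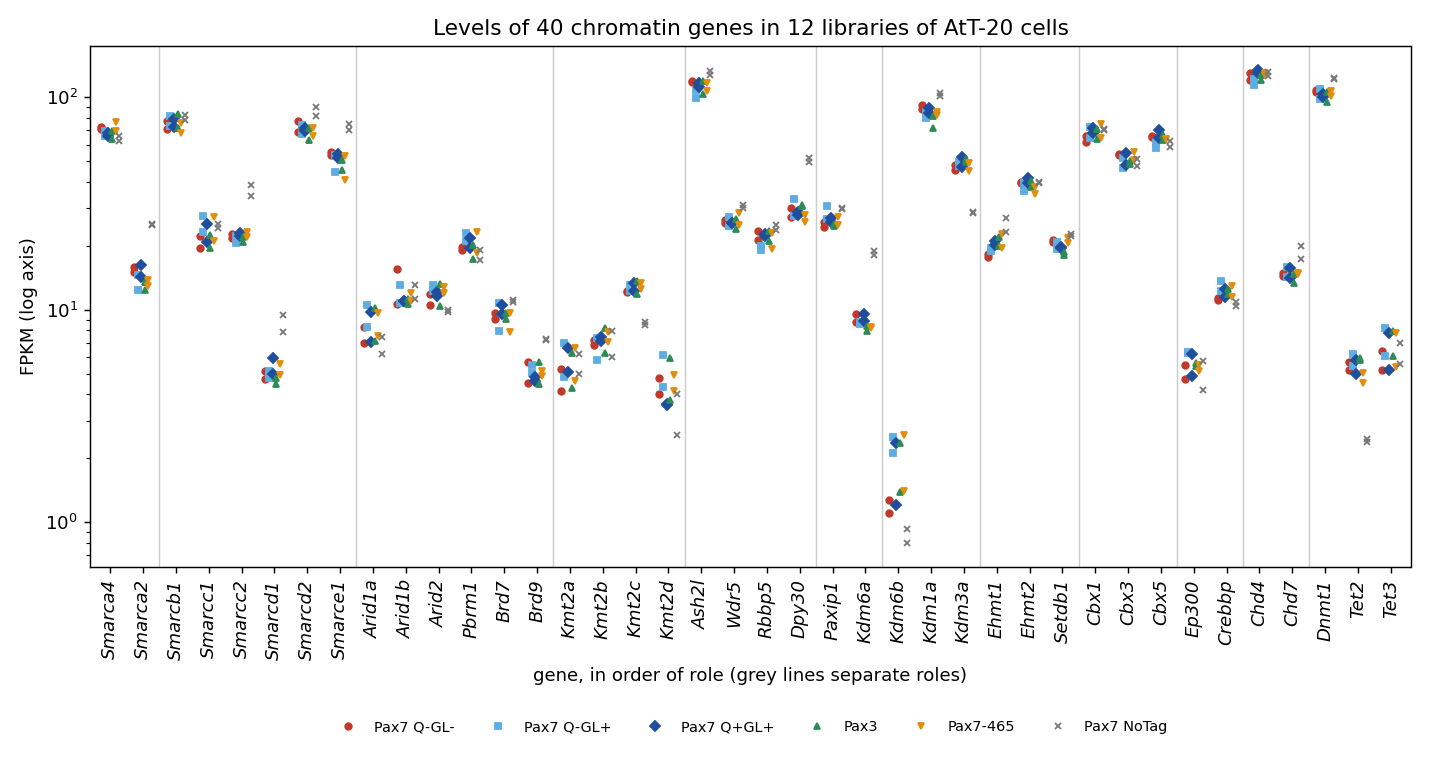
FPKM of the 40 genes in each of the 12 libraries, on a log axis, with genes in order of role and 1 symbol per library. The 10 libraries other than NoTag lie close together for most genes, Kdm6b spreads from 1.11 to 2.59 FPKM, and the crosses of NoTag lie apart for genes such as Kdm6a and Tet2.

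In the MLL complexes, the core subunits were more abundant than the methyltransferases they assemble on. Ash2l was at 104 to 119 FPKM over group means, Dpy30 at 27.0 to 31.1, Wdr5 at 25.4 to 26.8 and Rbbp5 at 19.5 to 22.5, and all 4 lay within the margin. The methyltransferase Kmt2c, or MLL3, was at 12.2 to 12.9 FPKM, Kmt2b at 6.59 to 7.47 FPKM, Kmt2a, or MLL1, at 4.68 to 5.91 FPKM and Kmt2d, or MLL4, at 3.57 to 5.22 FPKM. Kmt2a and Kmt2d fell outside the margin. Paxip1, or PTIP, which was first known as a partner of Pax proteins and belongs to the MLL3 and MLL4 complexes, was at 25.1 to 28.8 FPKM, and Kdm6a, the H3K27 demethylase of the same complexes, at 8.20 to 9.20 FPKM. Both lay within the margin.

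The H3K9 methylation genes and HP1 proteins all lay within the margin. Ehmt2, or G9a, was at 36.5 to 40.6 FPKM over group means, its partner Ehmt1, or GLP, at 18.0 to 21.2, and Setdb1 at 18.4 to 21.2. Cbx1, Cbx3 and Cbx5, the HP1 proteins, were at 64.0 to 69.9, 49.1 to 54.0 and 59.9 to 67.6 FPKM. Of their summed FPKM, Cbx1 took 34.1 to 38.9%, Cbx3 26.5 to 29.9% and Cbx5 32.9 to 36.0% in the 10 libraries, so the makeup of this family varied little between libraries.

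Other enzymes showed the same range of levels. The LSD1 gene Kdm1a was at 76.8 to 90.2 FPKM over group means and the H3K9 demethylase Kdm3a at 46.8 to 50.5 FPKM. Crebbp, which encodes CBP, was at 11.2 to 12.9 FPKM and Ep300, which encodes p300, at 5.10 to 6.28 FPKM. Chd4, the ATPase of the NuRD complex, was the most abundant of the 40 at 118 to 132 FPKM, while Chd7 was at 14.0 to 15.1 FPKM. Dnmt1, the maintenance DNA methyltransferase, was at 100.5 to 107 FPKM, and the 5-methylcytosine oxidases Tet2 and Tet3 were at 4.76 to 5.88 and 5.82 to 7.13 FPKM. Of these 9 genes Tet3 alone fell outside the margin.

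The genes with the least equal levels were Kdm6b, Kmt2d, Kmt2a, Tet3 and Arid1a. Kdm6b, an inducible H3K27 demethylase (ENSMUSG00000018476, chromosome 11 from 69398508 to 69413675), was at 1.11 and 1.28 FPKM in Q-GL- cells, 2.11 and 2.53 in Q-GL+, 2.35 and 1.20 in Q+GL+, 2.36 and 1.38 in Pax3 and 2.59 and 1.41 in Pax7-465. Both Q-GL- libraries were below both Q-GL+ libraries, whereas the other 3 groups each held 1 high and 1 low library. The difference between Q-GL- and Q-GL+ cells was -0.60 on the log2 scale (standard error 0.23, adjusted p = 0.185 in limma), with an interval from -1.10 to -0.09. Kmt2d was at 4.03 and 4.77 FPKM in Q-GL-, 4.34 and 6.11 in Q-GL+, 3.55 and 3.59 in Q+GL+, 5.95 and 3.77 in Pax3 and 4.96 and 4.16 in Pax7-465. Both Q+GL+ libraries were below all others of these 10, and the spread within the Pax3 group was as wide as that between groups.

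In 5 of the 6 groups these 5 genes all differed in the same direction between the replicates. All 5 were higher in replicate 1 than in replicate 2 of the Pax3 and Pax7-465 groups, and 4 of 5 were in Q+GL+, with differences of up to 0.60 on the log2 scale. All 5 were higher in replicate 2 of the Q-GL-, Q-GL+ and NoTag groups. The median difference between replicates of the other 35 genes lay between -0.08 and 0.10 in the 6 groups, and single genes among them differed by -0.51 to 0.35. Of these 35 genes 1, Smarcc1, had the same signs in those 5 groups, as did 4.17% of all tested genes. The 5 genes were singled out after their values were seen, and a wide spread within groups is what puts a gene outside the margin. Their longest annotated transcripts have 6654 to 19823 bases and a GC content of 50.6 to 59.6%, against medians of 5850 bases and 49.3% in the other 35. The part of length and GC content in this pattern was not tested.

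Each pair of isoforms was then compared. Between Q-GL- and Q-GL+ cells, which differ by GL, none of the 40 genes changed, against 4.17% of all tested genes. At an unadjusted p under 0.05, 1 gene was higher and 2 were lower in Q-GL- cells, against 18.7% of all tested genes. These were the MLL core subunit Ash2l at 0.19, Paxip1 at -0.18 and Kdm6b. Between Q+GL+ and Q-GL+ cells, which differ by Q, none changed, against 0.962% of all tested genes. At an unadjusted p under 0.05 Cbx5 and Chd4 were higher in Q+GL+ cells, each by 0.17, against 13.3% of all tested genes. Between Q-GL- and Q+GL+ cells none changed, against 2.15% of all tested genes, and none had an unadjusted p under 0.05, against 14.3% of all tested genes.

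Pax3 was compared with both a GL+ and a GL- form of Pax7. The study describes Pax3 as Q+GL-, so it differs from Q+GL+ also by GL and from Q-GL- also by Q. These comparisons therefore do not isolate the exchange of Pax7 for Pax3. Between Q+GL+ and Pax3 cells none of the 40 genes changed, against 0.262% of all tested genes, and Smarca2 and Kdm1a were higher in Q+GL+ cells at an unadjusted p under 0.05, against 10.2% of all tested genes. Between Q-GL- and Pax3 cells none changed either, against 4.33% of all tested genes, while 3 genes were higher and 1 was lower at an unadjusted p under 0.05, against 18.2% of all tested genes. Kdm1a came nearest to the threshold. It was at 91.8 and 88.7 FPKM in Q-GL- cells and 71.7 and 81.9 FPKM in Pax3 cells, a log2 difference of 0.23 (standard error 0.08, adjusted p = 0.135 in limma). Kdm1a was called in this comparison after quantile normalization (adjusted p = 0.028 in limma), and without Pax3 replicate 2 its difference was 0.33. Setdb1 was at 21.4 and 20.9 FPKM against 18.2 and 18.6 FPKM, a difference of 0.19 (adjusted p = 0.157 in limma). Smarca2 was higher as given above, and Ehmt1 was lower at -0.21. Both comparisons use the Pax3 libraries. Some corticotrope transcripts also differed between these groups. Of the 5 markers tested, Pomc and Pcsk1, a prohormone convertase that cleaves its product, exceeded their Pax3 levels in Q-GL- cells, by 0.63 and 0.68 (adjusted p = 0.015 and 0.0011 in limma). Tbx19, Neurod1 and Pitx1 instead averaged less in Q-GL- cells, and none of them was called against Pax3. Their means were 116, 11.5 and 10.1 FPKM in Q-GL- cells, against 126, 12.2 and 11.5 FPKM with Pax3. Pcsk1 averaged 388 FPKM in Q-GL- cells, 333 in Pax7-465, 299 in Q+GL+, 280 in Q-GL+ and 242 in Pax3. It alone of the 5 markers passed the F test (adjusted p = 0.0072 in limma). Its level in Q-GL- cells also exceeded that in Q-GL+, by 0.47 (adjusted p = 0.015 in limma). The part of these markers in the levels of the 40 genes was not tested.

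The deletion mutant Pax7-465 was compared with the same pair of Pax7 forms. The study labels its C-terminal mutants as Q+GL-, so Pax7-465 differs from Q-GL- also by Q and from Q+GL+ also by GL. No group labelled Q+GL- was analysed here, so these comparisons do not isolate the deletion. Between Pax7-465 and Q-GL- cells none of the 40 genes changed, against 0.445% of all tested genes. Ehmt1 was higher in Pax7-465 cells at 0.22 (standard error 0.09, adjusted p = 0.432 in limma), and it was the only one of the 40 at an unadjusted p under 0.05, against 10.8% of all tested genes. Its libraries were at 19.6 and 22.8 FPKM in Pax7-465 cells and 17.8 and 18.3 FPKM in Q-GL- cells. Between Pax7-465 and Q+GL+ cells none changed, against 1.33% of all tested genes, and none had an unadjusted p under 0.05, against 13.1% of all tested genes.

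Ratios between related genes describe which member of a pair a complex could draw on. In the 10 libraries other than NoTag, the FPKM ratio of Smarca4 to Smarca2 was 4.18 to 5.52, with both Pax7-465 libraries, at 5.39 and 5.52, above the other 8. The ratio of Smarcc1 to Smarcc2 was 0.904 to 1.34 and that of Smarcd1 to Smarcd2 was 0.0622 to 0.0846. Arid1a was at 0.532 to 0.908 of Arid1b, so the Arid1b transcript was the more abundant in every one of these libraries. The ratio of Kmt2d to Kmt2c was 0.266 to 0.468 and that of Kmt2a to Kmt2b was 0.591 to 0.948. Ehmt2 exceeded Ehmt1 by 1.65 to 2.21 times and Crebbp exceeded Ep300 by 1.93 to 2.52 times. The ratio of Tet3 to Tet2 was 0.895 to 1.56, so their order was not the same in all libraries. The widest range was that of Kdm6a to Kdm6b, 3.22 to 8.57, with group means of 7.72 in Q-GL- and 3.78 in Q-GL+ cells. These ratios are descriptions and were not tested.

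**Figure D3:**
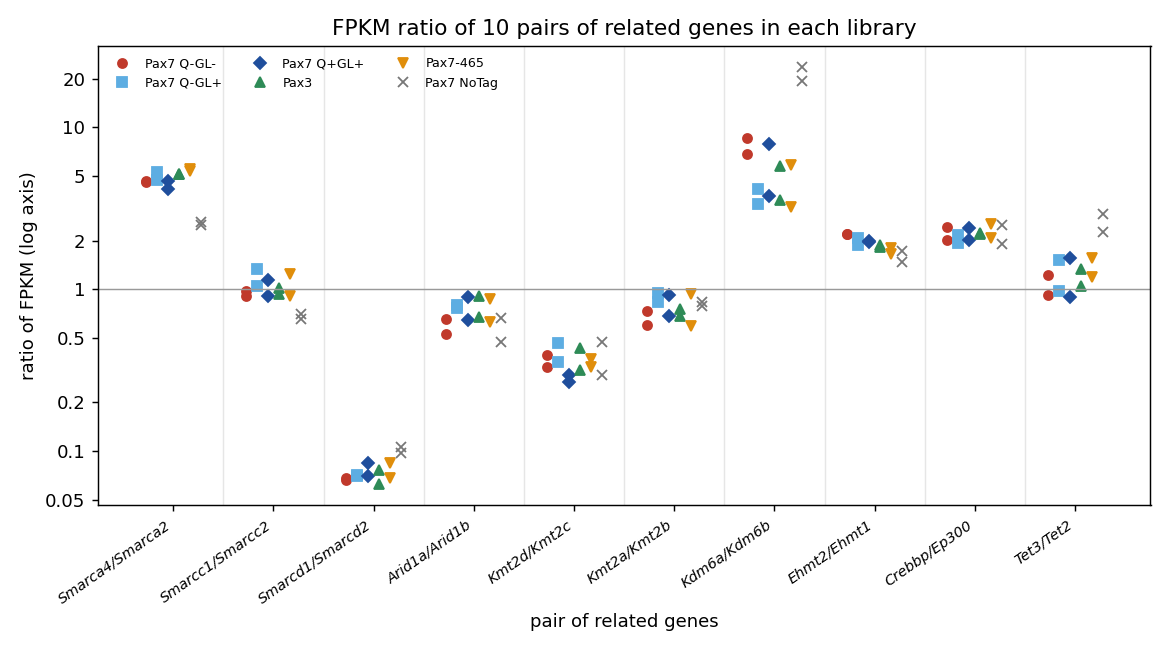
FPKM ratio of 10 pairs of related genes in each of the 12 libraries, on a log axis, with 1 symbol per library and a line at a ratio of 1. The 10 libraries other than NoTag form a band for each pair, and the NoTag crosses lie outside that band for 5 of the 10 pairs.

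Other genes of the same complexes were read from 7 lists, which hold 98 genes that are not among the 40, and 90 of them were tested. Across the 5 groups 1 of the 90 passed the F test, against the 4.78% of all tested genes. It was 1 of the 13 other SWI/SNF subunits tested, while none passed of the 8 other MLL and SET1 subunits, the 16 other H3K9 genes, the 12 other coactivators, the 22 other CHD, ISWI, INO80 and NuRD subunits, the 8 other DNA methylation genes and the 11 LSD1 partners and Polycomb genes. All 10 intervals lay within 1.5-fold for 8, 6, 13, 9, 17, 6 and 7 genes of these lists in the same order, 66 in all. These 66 of 90 stand against 70.5% of all tested genes.

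The gene that passed was Ss18, which encodes a subunit bound to the SWI/SNF ATPases in BAF and non-canonical BAF complexes (ENSMUSG00000037013, chromosome 18 from 14624198 to 14682914). It was at 77.0 and 70.1 FPKM in Q-GL- cells, 68.4 and 73.6 in Pax7-465, 52.3 and 49.9 in Q-GL+, 49.1 and 50.3 in Q+GL+ and 51.4 and 55.0 in Pax3. The 4 libraries of Q-GL- and Pax7-465 cells were thus above the 6 libraries of the other 3 groups, and the adjusted p of the F test was 0.0014 in limma. On the log2 scale, Q-GL- cells exceeded Q-GL+ cells in Ss18 by 0.52 (standard error 0.08, adjusted p = 0.0021 in limma), Q+GL+ by 0.55 (adjusted p = 0.0020) and Pax3 by 0.46 (adjusted p = 0.0043). Pax7-465 exceeded Q+GL+ by 0.50 (adjusted p = 0.0068 in limma), and the difference between Pax7-465 and Q-GL- cells was -0.05 (adjusted p = 0.86). The comparisons share libraries, and Pax7-465 and Q+GL+ differ by GL as well as by the deletion. For the ATPase gene Smarca4 these 4 libraries were also above the other 6, but the nearest of both sets were at 69.6 FPKM. The F test was not passed for Smarca4, and the order within the 4 libraries differed. The share of all tested genes with such a split was not counted. The paralog Ss18l1 had group means of 3.62 to 4.35 FPKM (adjusted p = 0.55 in limma). The call against Pax3 was lost without Q-GL- replicate 1 (adjusted p = 0.064 in limma), and that of Pax7-465 against Q+GL+ cells was lost without any of Pax7-465 replicate 2, Q+GL+ replicate 1 and Q+GL+ replicate 2, with an adjusted p of up to 0.071.

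In the pairwise tests 2 of the 90 list genes were called between Q-GL- and Pax3 cells, against 4.33% of all tested genes. Between Q-GL- and Q-GL+, Q-GL- and Q+GL+, and Pax7-465 and Q+GL+ cells the number was 1, against 4.17, 2.15 and 1.33%. Besides Ss18, 1 gene of the lists was called among the 5 groups. Ezh1, a Polycomb H3K27 methyltransferase, was at 18.1 and 18.4 FPKM in Q-GL- cells and 12.4 and 14.3 FPKM in Pax3 cells, higher by 0.43 (standard error 0.11, adjusted p = 0.042 in limma). The Ezh1 call did not hold in 4 of the 8 alternatives and in 7 of 12 fits that left out 1 library, among them those without either Q-GL- replicate, without Pax3 replicate 1 and without either replicate of Q+GL+ or NoTag.

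NoTag cells were compared with Q+GL+ cells. Of the 40 genes 17 changed, 14 higher and 3 lower in NoTag cells, against 46.0% of all tested genes, 36.9% higher and 9.02% lower. The median difference of all tested genes was 0.18 on the log2 scale, and that of the 40 was 0.09, so the values below are to be read against that shift. The Pax7 transcript averaged 158 FPKM in NoTag cells and 94.6 to 111 FPKM in the other Pax7 groups, and Pomc was higher in NoTag than in Q+GL+ cells by 0.72 (adjusted p = 7.2e-04 in limma). Neither level is scaled to the summed FPKM, which was higher in the NoTag libraries. The part of Pax7 or Pomc in these differences was not tested. After median centring 18 of the 40 changed, 6 higher and 12 lower. Without NoTag replicate 1 or NoTag replicate 2 the number was 11, and without Q+GL+ replicate 1 it was 10.

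In every one of 19 settings 9 of the 40 genes were called, against 24.0% of all tested genes, 6 higher, against 19.5%, and 3 lower, against 4.53%. Kdm6a, the X-linked H3K27 demethylase (ENSMUSG00000037369, chromosome X from 18162575 to 18279936), was at 19.0 and 18.1 FPKM in NoTag cells and 7.98 to 9.58 FPKM in the other 10 libraries, a log2 difference from Q+GL+ cells of 0.94 (standard error 0.08, adjusted p = 2.7e-06 in limma). Dpy30, the small subunit of the MLL core, was at 51.8 and 49.6 against 25.9 to 33.2 FPKM, a difference of 0.82 (standard error 0.09, adjusted p = 2.0e-05 in limma). Smarca2 was at 25.1 and 25.3 against 12.4 to 16.2 FPKM, higher by 0.69 (standard error 0.09, adjusted p = 1.0e-04 in limma). Smarcc2 was higher by 0.67, Smarcd1 by 0.59 and Brd9 by 0.53. Lower in NoTag cells were Tet2, at 2.45 and 2.39 against 4.50 to 6.18 FPKM (-0.90, standard error 0.10), Kdm3a, at 28.7 and 28.8 against 45.1 to 52.3 FPKM (-0.77, standard error 0.08), and Kmt2c, at 8.73 and 8.51 against 11.9 to 13.7 FPKM (-0.52, standard error 0.09). For these 9 genes the NoTag libraries did not overlap the other 10, and the genes were picked from the same values. Of all tested genes, 41.3% had both NoTag libraries above the other 10 and 9.13% had both below.

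The other 8 calls, all higher in NoTag cells, were smaller and were lost after median centring and after quantile normalization. They were Smarce1 at 0.45, Chd7 at 0.31, Smarcd2 at 0.27, Ehmt1 at 0.27, Dnmt1 at 0.26, Kdm1a at 0.25, Wdr5 at 0.25 and Setdb1 at 0.19. After quantile normalization Kdm1a was at -0.0081 and Setdb1 at -0.037, and the Setdb1 call was also lost with the replicate number as a block. Smarca4 was at 62.6 and 66.1 FPKM in NoTag cells, a difference of -0.06 from Q+GL+ cells that did not pass the test, but it was called lower after median centring, at -0.24, and after quantile normalization, at -0.29.

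Both NoTag libraries lay above all 10 others for 17 of the 40 genes, against 41.3% of all tested genes, and below them for 6 genes, against 9.13% of all tested genes. The 6 were Arid2, Kmt2c, Kdm6b, Kdm3a, Crebbp and Tet2. With Smarca2 higher and Smarca4 not, the ratio of Smarca4 to Smarca2 was 2.49 and 2.61 in NoTag cells, below all other libraries. The ratio of Smarcc1 to Smarcc2 was below the others too, at 0.706 and 0.657, and the ratios of Kdm6a to Kdm6b, at 23.7 and 19.5, of Tet3 to Tet2, at 2.26 and 2.94, and of Smarcd1 to Smarcd2, at 0.105 and 0.0968, were above them. Of the summed FPKM of the HP1 proteins in NoTag cells, Cbx1 took 38.0 to 40.1%, which reached above the other libraries, Cbx3 26.9 to 28.0% and Cbx5 33.0 to 34.0%. None of these 3 genes was called against Q+GL+ cells, but Cbx3 and Cbx5 were called lower after median centring, at -0.23 and -0.34, and all 3 after quantile normalization. Ss18 was highest in NoTag cells, at 88.4 and 87.5 FPKM.

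Transcript length moved with the NoTag difference. Across the 40 genes Spearman's rho between the length of the longest annotated transcript and the log2 difference from Q+GL+ cells was -0.544, and across 12550 tested genes it was -0.142. All of these points share the same 4 libraries. The median difference was 0.22 for the 10 genes with 2000 to 4000 bases, 0.18 for the 14 with 4000 to 7000 bases and -0.14 for the 15 with 7000 or more, against 0.19, 0.14 and 0.02 for all tested genes of these lengths. The remaining gene, Dpy30, has 789 bases. Kdm6a, at 5935 bases, and Kdm3a lie far from this trend on opposite sides. The part of transcript length in the NoTag differences was not tested.

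**Figure D4:**
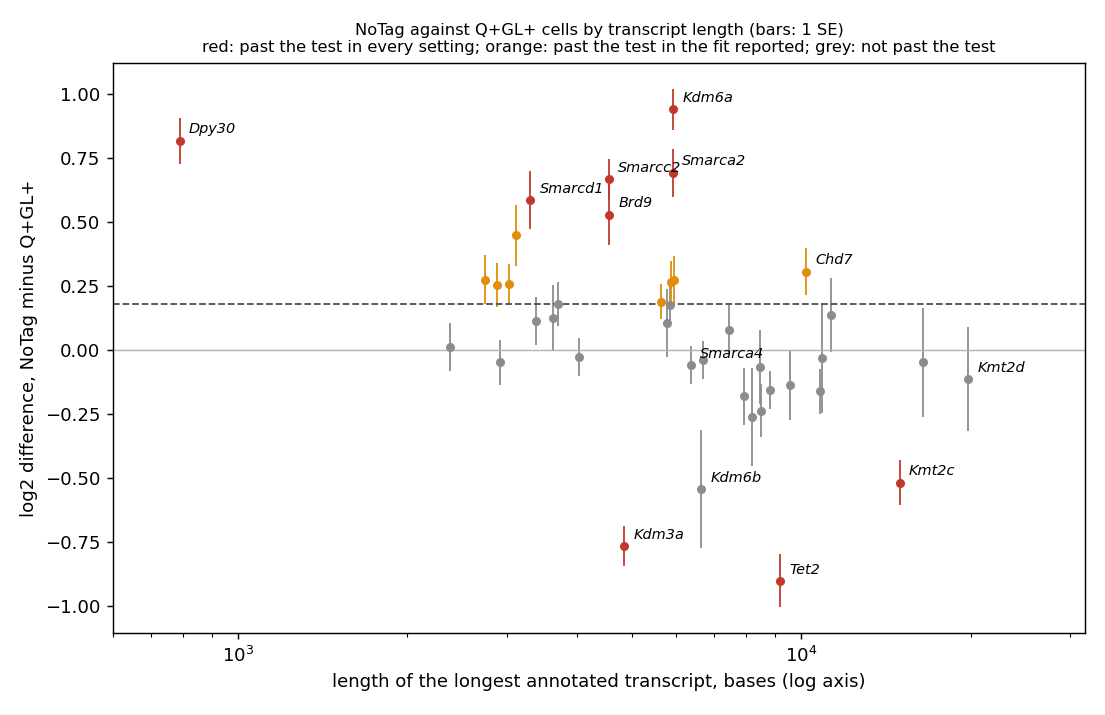
Log2 difference between NoTag and Q+GL+ cells for the 40 genes, each with its standard error from limma as a bar, against the length of the longest annotated transcript in bases on a log axis. The dashed line is the median of all tested genes, 0.18, the 9 genes called in every setting are red, the other 8 called genes are orange, and values tend to be lower for longer transcripts.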

How the data were processed

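RNA-Seq of AtT-20 cells was analysed in 12 libraries, 2 for each of 6 groups taken from the sample labels. The deposited values, 1 per gene and library, were taken as FPKM, since the table names no unit and the values are not whole and have unequal sums. To make them, the authors trimmed strand-specific read pairs with Trimmomatic, mapped them with TopHat2 to the Ensembl release of GRCm38 (mm10 in the labels), and quantified genes with HOMER. For these libraries, versions of Trimmomatic, TopHat2 and HOMER, the library total behind FPKM and use of strand in counting are not given in the sources used here. The authors name edgeR for their own comparisons, but without counts no count model was run. At most 12.5% of low values shared 1 step, so reads could not be recovered from them. A further 4 value columns were left out. Gene starts were converted to 1-based positions.

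The values were put on the log2(FPKM + 1) scale, on which 12578 genes, those reaching 1 FPKM in at least 2 libraries, were fitted together in limma 3.58.1 (R 4.3.3, statmod 1.5.0), with the trend and robust options and 1 coefficient per group. A moderated F test covered the 5 groups other than NoTag, and 8 pairwise tests were made, with Benjamini-Hochberg adjustment over all genes. Differences are on the log2(FPKM + 1) scale, which understates changes of low genes such as Kdm6b. Levels called equal had all 10 pairwise 95% intervals within 1.5-fold. Promoters are those of RefSeq on GRCm38.p6, and transcript lengths those of GENCODE M21 on GRCm38, the assembly of mm10. Python 3.11.15, pandas 2.3.3 and matplotlib 3.10.9 were used for ratios and plots. The steps were tested on simulated data. All 40 genes are named, with genes of the 7 further lists that pass a test and Ss18l1, the paralog of Ss18, which was chosen after its values were seen. The 40 genes, the lists and the comparisons were chosen with earlier results of these data known. Alternatives were a pseudocount of 0.1, 2 other filters on low values, quantile normalization, median centring, a fit without NoTag, a replicate block, each library left out and, added after seeing the data, a fit without the robust option, the split by transcript length and the restriction to promoter windows near the gene start.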

Additional observations from a re-analysis of the deposited data

How the results depend on the processing

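The F test across the 5 groups other than NoTag called 0 of the 40 genes under each of 8 alternatives and each of 12 omissions of 1 library, although a filter of 5 FPKM dropped Kdm6b, with a smallest adjusted p of 0.055 in limma after quantile normalization. Equal levels were found for 33 to 35 genes under the alternatives and for 31 to 35 when 1 library was left out. Quantile normalization called 1 gene in the test of Q-GL- against Q-GL+, Paxip1 at -0.23 (standard error 0.06, adjusted p = 0.046 in limma), and 1 in that of Q-GL- against Pax3, Kdm1a at 0.16 (adjusted p = 0.028 in limma). When libraries were left out, the latter comparison gave 0 or 1 gene, the 1 being Kdm1a without Pax3 replicate 2. The 5 other comparisons among these groups stayed at 0. Of all tested genes, 601 passed the F test, and 1149 did after quantile normalization. In the pairwise comparisons the counts over all genes moved from 524 to 896, 121 to 419, 271 to 484, 33 to 133, 545 to 891, 56 to 109 and 167 to 409 after quantile normalization, in the order of the text. Median centring moved the second of these to 217 and the fourth to 55, and a fit without NoTag moved the second to 76, the fourth to 17 and the sixth to 36. The fourth was 11 without the filter, 9 without the robust option and 19 with the replicate block. With 1 library left out, the F test gave 279 to 706 genes and these comparisons 163 to 691, 19 to 171, 71 to 344, 1 to 27, 187 to 725, 9 to 75 and 52 to 188.

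Between NoTag and Q+GL+ cells the 17 genes became 18 after median centring (6 higher, 12 lower), 19 after quantile normalization (6 higher, 13 lower) and 10 to 18 when 1 library was left out. Of all tested genes 4646 were higher and 1135 lower, 2714 and 2669 after median centring, and 2636 and 2942 after quantile normalization. After the latter Kdm1a and Setdb1 were at -0.0081 and -0.037. The causes were not tested. The replicate numbers were entered as a replicate block, which gave 16 genes (13 higher, 3 lower) for NoTag and 0 in every other comparison. Over all tested genes, differences between replicates correlated at -0.158 to 0.173 over 15 pairs of groups. Such values cannot show whether libraries of the same number were prepared together, and this is not stated. Depth is unknown, and 2 libraries a group limit precision, most of all for genes at low levels such as Kdm6b.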
